A study of Mus musculus with 12 samples.

Results

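The genes described here are 7 subunits of the GABA-A receptor, namely Gabra2, Gabra3, Gabra4, Gabra5, Gabrb1, Gabrb2 and Gabrd. They were chosen as the probes whose deposited gene name is one of these symbols, and they are 7 of the 24089 genes tested. The array holds 19 genes of the GABA-A and GABA-rho family, and the other 12 are used for comparison. Total RNA of the hippocampus from 12 adult male wild-type mice was labelled with Cy3 for Agilent 1-colour expression arrays, and every mouse had an array of its own. All mice were kept in constant darkness, and 3 mice were taken at each of 4 circadian times: CT0 (36 h of darkness), CT6 (42 h), CT12 (48 h) and CT18 (30 h). The stated question was which hippocampal genes are regulated over the circadian day. Darkness lasted a different time in each group, so circadian time and hours in darkness cannot be told apart. Each mouse is called by the number in its title.

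GABA-A receptors are pentameric chloride channels opened by GABA, the main inhibitory transmitter of the adult brain, and most combine alpha and beta subunits with a gamma or a delta subunit. Receptors with gamma subunits gather at inhibitory synapses and carry brief currents, while receptors with the delta subunit, and many with alpha5, lie outside synapses and carry a steady (tonic) current. In the hippocampus, alpha5 is known from pyramidal cell dendrites, and alpha4 with delta from dentate granule cells, whereas in the cerebellum granule cells pair alpha6 with delta.

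All 9 probes of the 7 genes lay well above background on all 12 arrays, so each member passed the filter on dim probes. A value below is log2 probe intensity relative to the 75th percentile of its array, so 0 is the brightness of the 75th percentile probe. Gabra2 and Gabra3 have 2 probes each, and the other members have 1. The stretches below are shown because they are what each value was read from: the part that both Gabra2 probes share, the 2 Gabra3 probes that differ most in brightness, and the probes of the members that lay furthest below and above the rest in mouse 11. Each is 5′ to 3′ from the deposited files, with coordinates of the whole probe on mm9, all on the minus strand. What lies at these positions in the gene (coding exon or UTR) was not analysed here.
Gabra2, shared by the probes at chr5:71352306-71352365 and chr5:71352275-71352334: tcagctcacttcaatcattggaaactacc
Gabra3, first 30 bases of the brighter probe, chrX:69678031-69678090: ctgtagaaattgtgttttaaaatgctttgg
Gabra3, first 30 bases of the dimmer probe, chrX:69679357-69679416: ttacctctgtcaaacatatgtatatgagag
Gabra5, first 30 bases, chr7:64663486-64663545: ctgtggacatttaagtccagtacgaattgc
Gabrd, first 30 bases, listed at chr4:154759071-154759089: aggccttttctctgtgggatcaggatcaga
The listed Gabrd interval is shorter than the 60 bases of its probe. The 2 Gabra3 probes averaged 3.25 and -3.67 over the 11 libraries other than mouse 11, although they target the same gene. The order of probe brightness is therefore not an order of transcript abundance, and the subunits were not ranked by abundance.

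CT12 mouse 11, a library labelled hippocampus, went against that label and stands apart from the rest. Across genes it correlated with the other 11 libraries at 0.945 to 0.965, while no 2 of the others fell below 0.984, and 55.8% of all genes lay outside the range of the other 11 in it. The median difference of 10 cerebellar markers from their own medians over the libraries was 5.01 in mouse 11, against -0.17 to 0.28 in the other 11 (4.84 against -0.26 to 0.40 over the 9 markers without Gabra6). In mouse 11, 9 of these 10 lay well above background, against 6 to 7 in the others. The log2 of their summed level was 8.30 in mouse 11 and 1.47 to 4.24 in the others, and the Barhl2 probe was near background on all 12 arrays. The same median was -4.57 in mouse 11 for 7 excitatory forebrain neuron markers, against -0.64 to 0.21 in the others. For 8 CA1 pyramidal cell markers it was -2.62, against -0.41 to 0.21. Of the others, CT12 mouse 10 was the lowest for both lists, at -0.64 and -0.41. Emx1, which marks forebrain excitatory neurons, was not well above background in mouse 11 and was so on the other 11 arrays. Choroid plexus markers were high in 5 libraries, at least 1 of each circadian time: CT0 mouse 1, CT6 mouse 7, CT12 mice 10 and 11, and CT18 mouse 14. Differences and counts of the members that involve CT12 are therefore given with and without mouse 11. In bulk tissue, fewer cells of a type and less RNA per cell cannot be told apart.

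**Figure D1:**
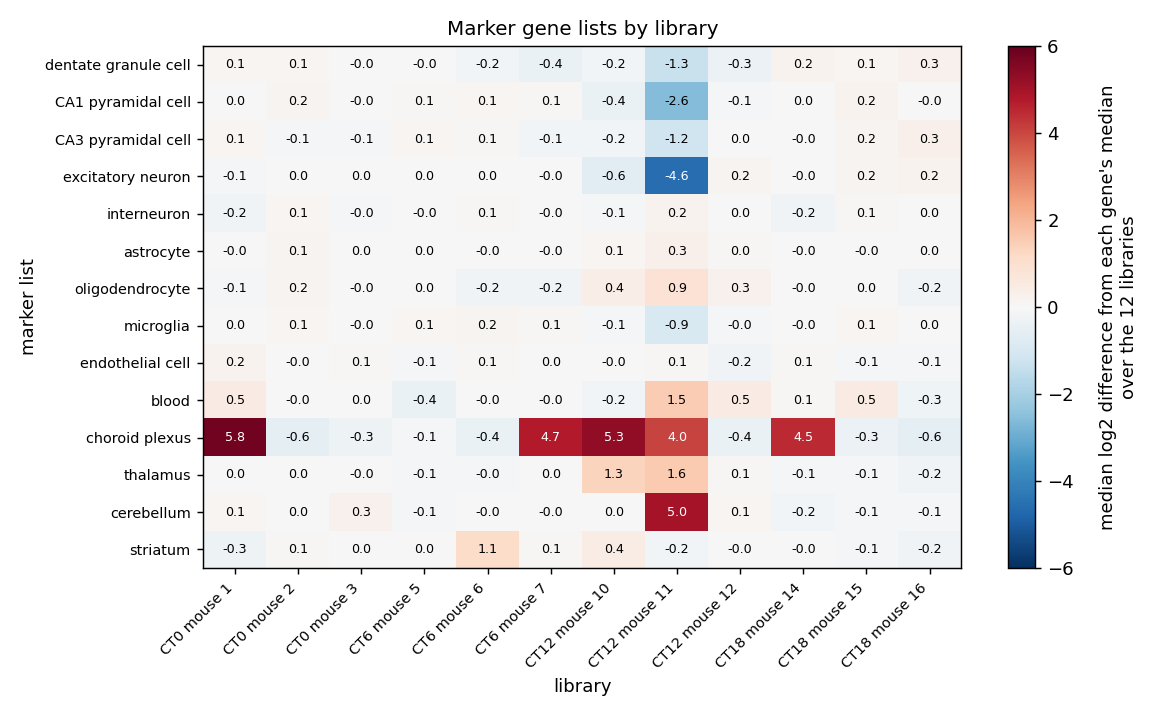
Marker gene lists (rows) in the 12 libraries (columns, by circadian time). Each number is the median over the list of the log2 difference from each gene's own median over the 12 libraries. CT12 mouse 11 reads 5.0 for the cerebellum and -4.6 for excitatory neurons, and CT12 mouse 10 reads 1.3 for the thalamus and 5.3 for the choroid plexus.

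No difference of these genes over circadian time passed the test. By the limma F test over the 4 times, 0 of the 7 members were called at an adjusted p under 0.05, where 0.166% of all genes tested were called. At an unadjusted p under 0.05 the test named 1 of 7, Gabrd, against 10.6% of all genes. The 24-hour cosine called 0 of 7 (0.0706% of all genes), and 0 of 7 at an unadjusted p under 0.05 (9.72%). Without mouse 11 the F test also called 0 of 7 (0.245% of all genes), with Gabrd at an unadjusted p under 0.05 (12.3%), and the cosine called 0 of 7 (0.282%), with 0 at an unadjusted p under 0.05 (12.3%). Among the 11 libraries without mouse 11, the 4 means of a member spanned between 0.10 (Gabrb2) and 0.63 (Gabrd) on the log2 scale. The SD over those 11 libraries was 0.12 for Gabrb2, 0.14 for Gabra4 and Gabrb1, 0.16 for Gabra5, 0.19 for Gabra2, 0.21 for Gabra3 and 0.27 for Gabrd, where the median gene had 0.18.

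**Figure D2:**
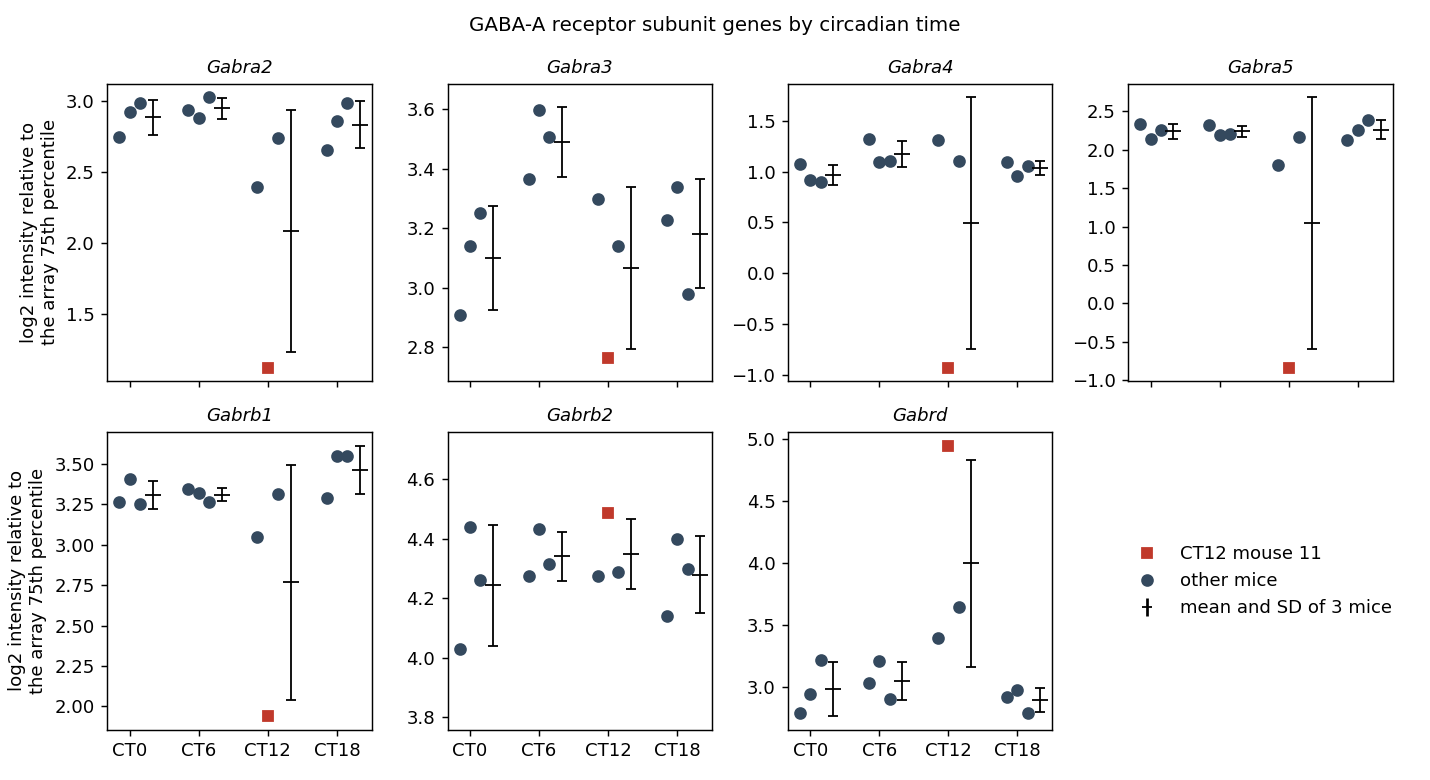
Log2 intensity of the 7 members relative to the 75th percentile of the array (vertical axes, scaled per gene and not starting at 0) in each mouse at CT0, CT6, CT12 and CT18. Bars give the mean and SD of 3 mice; at CT12 they are wide for Gabra2, Gabra4, Gabra5, Gabrb1 and Gabrd because mouse 11, the square, lies away from mice 10 and 12.

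Among the alpha subunits of synaptic receptors, Gabra2 encodes alpha2, found at synapses on the axon initial segment of pyramidal cells. Its level was 2.74, 2.92 and 2.98 at CT0, 2.93, 2.88 and 3.02 at CT6, 2.39, 1.13 and 2.74 at CT12, and 2.66, 2.86 and 2.98 at CT18. By its brighter probe the CT12 mice lay below every CT0 and CT6 mouse, the mouse at 1.13 being mouse 11, and they overlapped with CT18. Of all genes, 12.9% did not overlap between CT12 and CT0 and 16% between CT12 and CT6. The share that did neither was not counted. The margin to CT0 was narrow, with 2.739 in CT12 mouse 12 and 2.745 in CT0 mouse 1. The order of the means was CT12, CT18, CT0, CT6 with and without mouse 11, and CT18, CT0 and CT6 lay within their spread. The CT12 mean was 2.09 ± 0.85 and the CT0 mean 2.88 ± 0.12 (SD, n = 3 each), a difference of -0.80 ± 0.33 (SE) with a limma adjusted p of 0.420. Without mouse 11 the difference was -0.32 ± 0.14 with a limma adjusted p of 0.576. The second Gabra2 probe overlaps the first by the shared stretch and is no independent measure. By the second probe CT12 was not separated from CT0 or CT6. There mouse 12 read 2.50, above CT0 mice 1 and 2 (2.36 and 2.44) and CT6 mouse 6 (2.43). In mouse 11 the second probe lay -1.73 from the mean of the other 11, and the first probe -1.70.

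Gabra3 encodes alpha3, a subunit prominent in monoaminergic neurons and the reticular thalamus. Its brighter probe read 2.91, 3.14 and 3.25 at CT0, 3.37, 3.60 and 3.51 at CT6, 3.30, 2.77 and 3.14 at CT12, and 3.23, 3.34 and 2.98 at CT18. By this probe the 3 CT6 mice lay above all mice of the other times, while CT0, CT12 and CT18 overlapped. The share of all genes that do so at CT6 was not counted. Pair by pair, CT6 did not overlap with CT0 in 11% of all genes, with CT12 in 16% and with CT18 in 22.8%. The CT6 mean exceeded the CT0 mean by 0.39 ± 0.16 (SE), 1.31-fold, where the SD of 3 mice was 0.12 at CT6 and 0.17 at CT0, and the limma adjusted p was 1.0. Within the 3 slides, each of which holds 1 mouse per time, CT6 minus CT0 was 0.46, 0.26 and 0.46. The difference was 0.16 when the mean of both probes stood for the gene. The dimmer probe alone did not set CT6 above the other times. It read -4.19, -3.82 and -2.86 at CT0 and -3.78, -3.78 and -3.54 at CT6. CT0 mouse 3 (-2.86) and CT12 mouse 12 (-3.33) lay above every CT6 mouse.

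Gabra5, the alpha subunit of tonic receptors on CA1 and CA3 dendrites, read 2.33, 2.14 and 2.26 at CT0, 2.32, 2.19 and 2.21 at CT6, 1.80, -0.84 and 2.17 at CT12, and 2.13, 2.26 and 2.38 at CT18. At CT0, CT6 and CT18 the means were 2.24 ± 0.10, 2.24 ± 0.07 and 2.26 ± 0.12, which lie within the spread of 3 mice. The CT12 mean was 1.05 ± 1.64, and 1.99 without mouse 11, where mouse 10 remained the lowest of the other 11. CT12 minus CT0 was -1.20 ± 0.60 with all mice and -0.26 ± 0.13 without mouse 11, with limma adjusted p of 0.454 and 0.648. Within the slides it was -2.98 on the slide of mouse 11, -0.53 on that of mouse 10 and -0.09 on that of mouse 12. Of the 11 libraries without mouse 11, mouse 10 was also the lowest for Gabra2 and Gabrb1, and in the excitatory and CA1 marker medians. Whether the tissue makeup of mouse 10 contributed to these values was not tested.

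Gabra4, the alpha partner of delta in dentate granule cells and in thalamic relay cells, read 1.08, 0.92 and 0.90 at CT0, 1.32, 1.10 and 1.10 at CT6, 1.31, -0.93 and 1.10 at CT12, and 1.10, 0.96 and 1.05 at CT18. All CT6 mice lay above all CT0 mice, by a narrow margin, and mouse 11 was the lowest at any time. Between CT6 and CT0, 11% of all genes did not overlap. The difference of CT12 from CT0 was -0.47 ± 0.46 with mouse 11 and 0.24 ± 0.11 without it, so that 1 mouse set its direction. The order of the means ran CT12, CT0, CT18, CT6 with mouse 11 and CT0, CT18, CT6, CT12 without it. The limma adjusted p for CT12 against CT0 was 0.678 with mouse 11 and 0.608 without it.

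The beta subunits carry part of the GABA binding site and anchor the receptor. Gabrb1 read 3.26, 3.41 and 3.26 at CT0, 3.34, 3.32 and 3.27 at CT6, 3.05, 1.94 and 3.32 at CT12, and 3.29, 3.55 and 3.55 at CT18. Apart from mouse 11 the values spanned 3.05 to 3.55, and no 2 times were separated without overlap. CT18 minus CT12 was 0.70 ± 0.28 and 0.28 ± 0.12 without mouse 11, with limma adjusted p of 0.264 and 0.319. Gabrb2, another beta subunit, was the steadiest member, at 4.03, 4.44 and 4.26 at CT0, 4.28, 4.43 and 4.31 at CT6, 4.28, 4.49 and 4.29 at CT12, and 4.14, 4.40 and 4.30 at CT18. All 4 times overlapped, and the largest difference between means was 0.11, for CT12 against CT0 (limma adjusted p = 0.737). Without mouse 11 that difference was 0.04 (limma adjusted p = 0.966).

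Gabrd, the delta subunit of extrasynaptic receptors, had the smallest F p of the members and, without mouse 11, the widest span of means over time. It read 2.79, 2.95 and 3.22 at CT0, 3.04, 3.21 and 2.91 at CT6, 3.40, 4.95 and 3.65 at CT12, and 2.92, 2.98 and 2.79 at CT18. All 3 CT12 mice lay above all 9 mice of the other times, as in 1.7% of all genes, and mice 10 and 12 alone did so too (2.29% of all genes). CT0, CT6 and CT18 overlapped. The CT12 mean exceeded the CT0 mean by 1.01 ± 0.33 (SE), 2.02-fold, where the SD of 3 mice was 0.83 at CT12 and 0.22 at CT0. Without mouse 11 the difference was 0.54 ± 0.15 or 1.45-fold. The F test of Gabrd did not pass, with a limma adjusted p of 0.393 with all mice and 0.237 without mouse 11 (unadjusted 0.0232 and 0.0112). The limma adjusted p of CT12 against CT0 was 0.365 with all mice and 0.339 without mouse 11.

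Within the slides, CT12 minus CT0 for Gabrd was 2.0 on the slide of mouse 11 and 0.43 and 0.61 on the other slides, and with the slide as a block the limma adjusted p was 0.221. With the slide as a block and mouse 11 left out, the difference was 0.57 ± 0.15 and the limma adjusted p 0.242. CT18 minus CT12 was -1.10 ± 0.33 with all mice and -0.63 ± 0.15 without mouse 11, with limma adjusted p of 0.168 and 0.100. A cosine fitted to Gabrd had an amplitude of 0.51 with its peak at 11.4 h (limma adjusted p = 0.543), and of 0.25 with its peak at 10.8 h without mouse 11 (0.459). The thalamus marker median, relative to each gene's median, was 1.33 in mouse 10, 1.59 in mouse 11 and 0.07 in mouse 12. The markers were mixed in mouse 11. Tcf7l2, Lef1 and Plekhg1 lay -0.20, -0.25 and -0.12 from the mean of the other 11 libraries, within their range. Calb2, Rora, Slc17a6 and Prkcd lay 2.91, 2.03, 1.98 and 1.24 above that mean. The choroid plexus medians were 5.31 in mouse 10, 4.03 in mouse 11 and -0.42 in mouse 12. The cerebellum medians were 0.04 in mouse 10, 5.01 in mouse 11 and 0.12 in mouse 12. Gabrd itself read 3.40 in mouse 10, 4.95 in mouse 11 and 3.65 in mouse 12. Delta is also known from the thalamus and from cerebellar granule cells. Whether thalamic or cerebellar tissue contributed to the Gabrd values of the CT12 mice was not tested.

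In the 6 comparisons between pairs of times, 0 of 7 members were called in any of them by limma's moderated test at an adjusted p under 0.05, with all mice or without mouse 11. The share of all genes called was 0% for CT6 against CT0, 0.0581% for CT12 against CT0, 0% for CT18 against CT0, 0.0208% for CT12 against CT6, 0.133% for CT18 against CT6 and 0.403% for CT18 against CT12. Without mouse 11 these shares were, in the same order of pairs, 0%, 0.0291%, 0.0208%, 0.0249%, 1.25% and 0.494%. These comparisons share mice, and CT12 enters 3 of them.

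At an unadjusted p under 0.05, limma named Gabra3 for CT6 against CT0, with all mice (2.45% of all genes) and without mouse 11 (5.01%). It named Gabra2 and Gabrd for CT12 against CT0, with all mice (11.7%) and without mouse 11 (8.39%). For CT12 against CT6 it named Gabra2, Gabra3 and Gabrd with all mice (11.8%), and Gabra2 and Gabrd without mouse 11 (7.91%). For CT18 against CT12 it named Gabra2, Gabrb1 and Gabrd with all mice (16.6%), and Gabrb1 and Gabrd without mouse 11 (13.8%). For CT18 against CT6 it named 0 members with all mice (8.32%), and Gabra3 without mouse 11 (13.8%). For CT18 against CT0 it named 0 both with all mice (3.97%) and without mouse 11 (7.05%).

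The groups did not overlap for Gabra3 and Gabra4 at CT6 against CT0 (11% of all genes), for no member at CT18 against CT0 (11.5%) and for Gabra3 at CT18 against CT6 (22.8%). At CT12 against CT0 they did not overlap for Gabra2 and Gabrd with all mice (12.9%), and for Gabra2, Gabra4 and Gabrd without mouse 11 (20%). At CT12 against CT6 they did not overlap for Gabra2, Gabra3, Gabra5 and Gabrd, with all mice (16%) and without mouse 11 (23.6%). At CT18 against CT12 they did not overlap for Gabrd with all mice (18.3%), and for Gabra4 and Gabrd without mouse 11 (27.1%). These counts take the brightest probe of each gene. By the other probe of Gabra2 and of Gabra3, the groups named above for these genes did overlap.

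**Figure D3:**
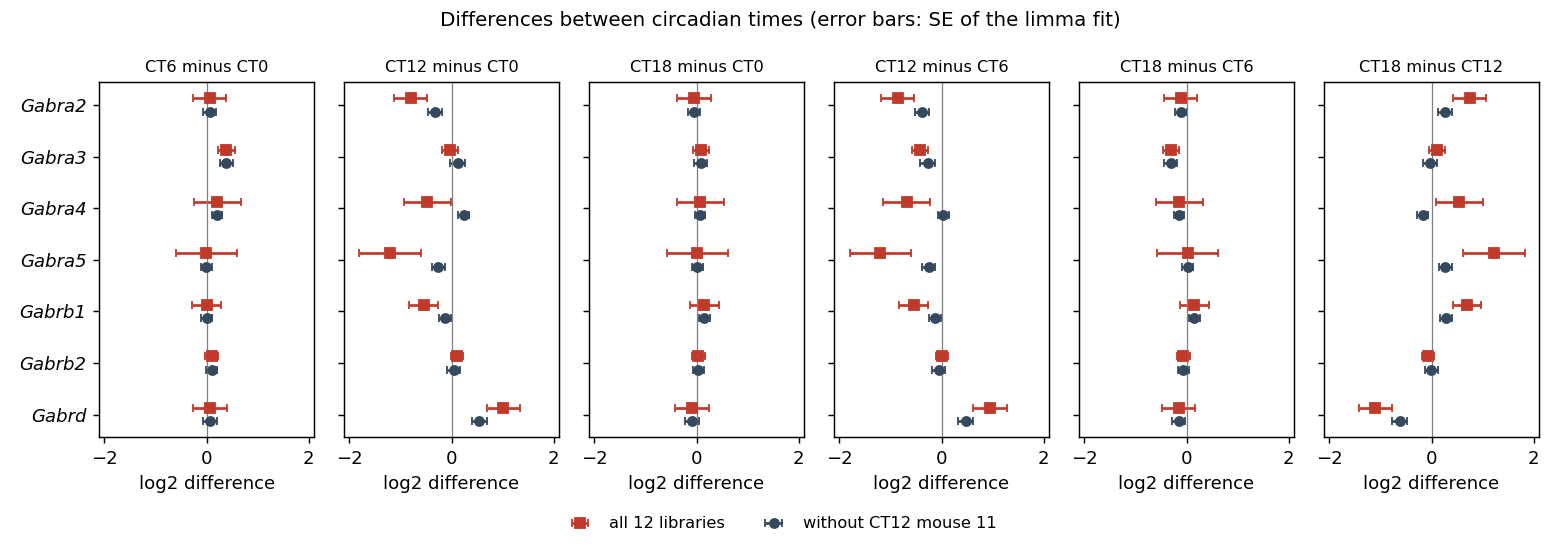
Log2 differences between pairs of circadian times for the 7 members (rows), with the SE of the limma fit, for all 12 libraries (squares) and without CT12 mouse 11 (circles). Leaving out mouse 11 moves the 3 panels with CT12: in CT12 minus CT0, Gabra5 is at -1.20 with it and -0.26 without it, while Gabra4 (-0.47 and 0.24) and Gabra3 (-0.03 and 0.12) change sign.

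The largest differences among these genes were between mouse 11 and the other 11 libraries. With 1 library on 1 side there is no replicate and no test, and the values are a description of these libraries. In mouse 11, 5 members lay below all 11 other libraries, as did 30.3% of all genes, and 2 lay above all 11, as did 25.4% of all genes. Those below by at least 1 on the log2 scale were 4 of 7 members, against 9.33% of all genes, and 1 of 7 lay at least 1 above, against 6.05%. The members were chosen with earlier results of these data known, so these counts are no test of the family.

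The 4 members furthest below the other libraries are 3 alpha subunits and a beta subunit. Gabra5 was -0.84 in mouse 11 and 1.80 to 2.38 in the others (median 2.21), 8.22-fold lower than their mean. Only 1.10% of all genes lay further down. Gabra4 was -0.93 in mouse 11 and 0.90 to 1.32 in the others (median 1.10), 4.04-fold lower. Gabra2 was 1.13 in mouse 11 and 2.39 to 3.02 in the others (median 2.88), 3.25-fold lower. Gabrb1 was 1.94 in mouse 11 and 3.05 to 3.55 in the others (median 3.32), 2.62-fold lower. For each of these 4 genes the gap between mouse 11 and the nearest other library was at least 1.11 on the log2 scale, more than the whole range of the other 11.

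Gabra3 and Gabrb2 differed least. Gabra3 was 2.77 in mouse 11 and 2.91 to 3.60 in the others, 1.40-fold lower than their mean, and its dimmer probe lay -0.86 from the mean. Gabrb2 was 4.49 in mouse 11 and 4.03 to 4.44 in the others, a ratio of 1.15 to their mean and 0.05 above the nearest library. Gabrd went the other way, at 4.95 in mouse 11 and 2.79 to 3.65 in the others (median 2.98), 3.66-fold higher than their mean. Against only mice 10 and 12 of the same circadian time, the difference in mouse 11 was 1.42 for Gabrd and -2.83 for Gabra5.

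The order of the 7 probes by brightness, which can be compared between libraries though not between genes, also differed. The Gabrd probe was the brightest of the 7 in mouse 11, and its place was between 2 and 5 in the others (median 4). Gabrb2 was the brightest in all 11 others and came after Gabrd in mouse 11. The Gabrb1 probe stood at place 4 in mouse 11, within its places of 2 to 4 in the others (median 2). Gabra5 and Gabra4 were at places 6 and 7 in all 12 libraries.

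**Figure D4:**
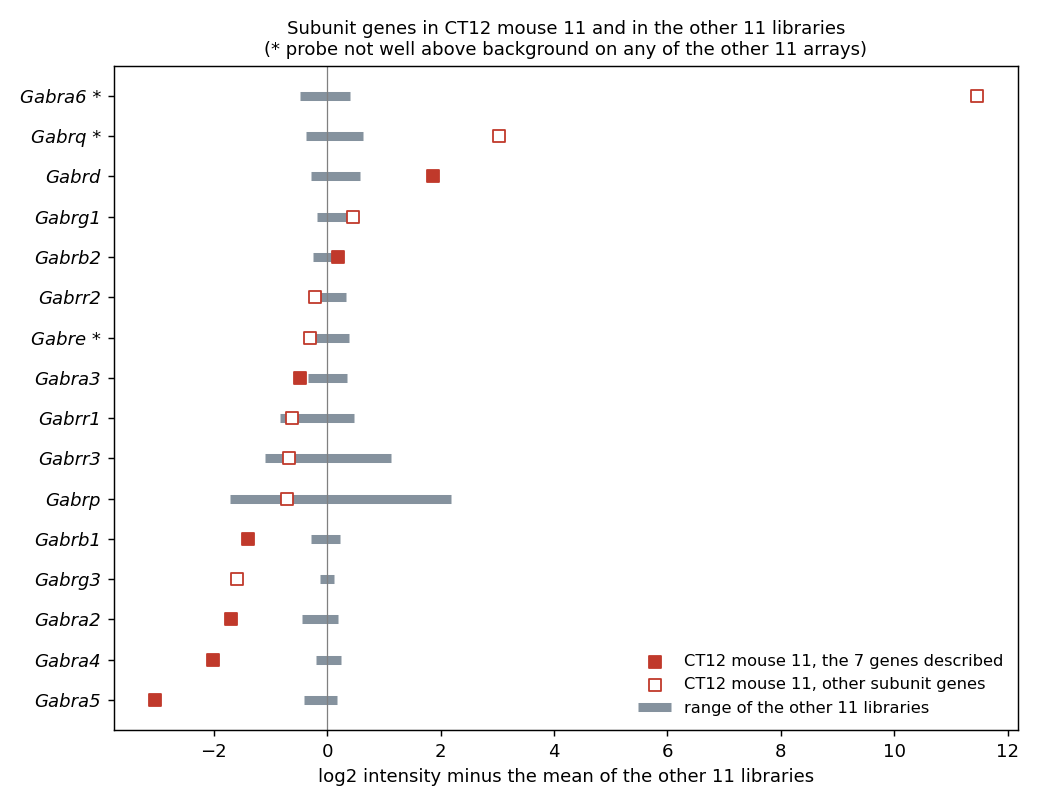
Level of each subunit gene in CT12 mouse 11 minus the mean of the other 11 libraries (squares, log2), with the range of those 11 libraries around their mean (grey bars). The genes shown run from Gabra6 and Gabrq, whose probes were not well above background on the other 11 arrays, at the top to Gabra5 at the bottom. Of the 7 members, Gabrd lies at 1.87 and Gabra5 at -3.04.

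The remaining subunit genes of the family gave 7 genes that passed the filter on dim probes, and 0 of these 7 were called by the limma F test (0 at an unadjusted p under 0.05). Among those with the smallest F p was Gabrg1, a gamma subunit (limma adjusted p = 0.521, and 0.703 without mouse 11). Gabra6 encodes alpha6, the partner of delta in cerebellar granule cells. It was 4.21 in mouse 11 and not well above background on any of the other 11 arrays, at least 744-fold higher in mouse 11. Gabrq, which encodes the theta subunit, was -4.27 in mouse 11 and not well above background on the other 11, at least 2.09-fold higher. These folds set each dim array at the higher of its dimmest probe well above background and the probe's own value. Gabrg3, another gamma subunit, was -0.38 in mouse 11 and 1.08 to 1.33 in the others.

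By place in the genome, subunit genes lie in clusters. On chromosome 5, Gabra2, Gabra4 and Gabrb1 lay -1.70, -2.02 and -1.39 from the mean of the other 11 in mouse 11, while their neighbour Gabrg1 lay 0.46 from it, within the range of the others. On chromosome 7, Gabra5 and Gabrg3 lay -3.04 and -1.59 from it. On chromosome 11, Gabrb2 lay 0.20 from it, and Gabra6 was not well above background elsewhere. Gabra3 lies on chromosome X and Gabrd alone among the members on chromosome 4.

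Other genes of GABA signalling were read from lists written from general knowledge. By the limma F test 0 genes were called in each list, and the counts at an unadjusted p under 0.05 were 0 of 8 for GABA synthesis, transport and breakdown, 2 of 19 for the inhibitory postsynapse, 0 of 6 for the GABA-B receptor, 3 of 14 for chloride and bicarbonate handling and 0 of 8 for receptor kinases and neurosteroid synthesis. Of all genes, 10.6% had such an unadjusted p with all mice and 12.3% without mouse 11. The genes with the smallest F p in each list had limma adjusted p of 0.519 for Slc32a1, the vesicular GABA transporter, 0.404 for Plcl1, which helps to deliver receptors to the surface, 0.556 for Kctd12, a GABA-B auxiliary subunit, 0.400 for Car2, a carbonic anhydrase, and 0.551 for Prkca, a protein kinase C. The second of each list were Slc6a11 (0.523), Trak1 (0.409), Kctd8 (0.754), Slc4a3 (0.431) and Prkce (0.563), all in the same limma fit. Without mouse 11, 0 genes were called in each list, the adjusted p of these 10 genes ran between 0.219 (Car2) and 0.976 (Kctd8), and the counts at an unadjusted p under 0.05 were 0, 2, 1, 3 and 1 in the same order of lists. The list medians of CT12 minus CT0 ran between -0.38 for the kinases and neurosteroid list and 0.22 for GABA synthesis, against -0.47 for the 7 members and -0.02 for all genes. Without mouse 11 they ran between -0.17 and 0.15 for those same lists, against 0.04 for the members and -0.01 for all genes, so the members' median rests on that 1 library.

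Of all genes, 25.4% lay above all 11 other libraries in mouse 11 and 30.3% below them, which is the share to set beside each count here. In mouse 11, 6 of 8 genes of GABA synthesis, transport and breakdown lay above all 11 other libraries and 0 below. Slc32a1 was 6.63 in mouse 11 and 5.18 to 5.82 in the others, and Slc6a11, a GABA transporter of astrocytes, was 1.64 in mouse 11 and 0.29 to 1.44 in the others. Gad1, which makes GABA, was 3.86 in mouse 11 and 3.38 to 3.83 in the others. Of the kinases and neurosteroid list, 5 of 8 lay below all 11, with Camk2a, a kinase of excitatory synapses, at -0.94 in mouse 11 and a mean of 3.63 in the others. Of the inhibitory postsynapse list 10 of 19 lay below and 4 above. Shisa7, a GABA-A auxiliary protein, was -0.45 in mouse 11 and 1.66 to 2.53 in the others, while Nlgn2, the adhesion protein of inhibitory synapses, was 5.37 in mouse 11 and 5.24 to 5.60 in the others. For chloride and bicarbonate handling, 8 of 14 lay above and 2 below, and Slc12a5, the neuronal chloride exporter, was 6.83 in mouse 11 and 6.46 to 6.88 in the others.

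The genes whose level ran most like each member's over the 11 libraries without mouse 11 were searched among 24082 genes by Pearson's r. They were picked as the highest values, and libraries share tissue makeup and slide, so r is a description. Gabra2 ran with Aldh3a2 (r = 0.936). Gabrd ran with Retreg1 (0.977) and BC006965 (0.947), Gabra5 with Slit2 (0.949) and Tmem171 (0.936), and Gabra4 with Setd1a (0.892) and Sephs1 (0.873). Gabrb1 ran with Mfsd13a (0.976) and Trpc4 (0.973), Gabrb2 with Dnajc9 (0.956) and Diras1 (0.954), and Gabra3 with Arhgap32 (0.916), its second being an unnamed intergenic probe. In mouse 11 the likeness did not carry over for all of them. Aldh3a2 lay 0.07 from the mean of the other 11 where Gabra2 lay -1.70, and Retreg1 lay 0.18 from it where Gabrd lay 1.87. Trpc4, at -3.85, lay on the same side as Gabrb1, at -1.39.

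Promoter windows of the members were read as letters. Whether they bear on the low values of 4 members in mouse 11, which went against its hippocampus label, was not tested. A window spans 250 bases before to 50 after a start site, and 10 windows of 6 members matched the RefSeq table by symbol (GRCm38.p6). Gabrd was not among them. The motifs of clock factors, searched as letters on both strands, were absent from all 10 windows: the E-box CACGTG (in 7.15% of 32817 windows), the D-box TTATGTAA (0.935%) and the ROR half-site AGGTCA (16.3%). The cAMP element TGACGTCA (1.79%), searched in the same way, was absent from them too. The general E-box CANNTG, which includes CACGTG, was found in 3 windows, of Gabra2, Gabra5 and Gabrb2 (72.3% of all windows), and the GC box GGGCGG in 3, of Gabra2, Gabra4 and Gabrb2 (35.6%). Gabra4 and Gabrb1 lie on opposite strands, and the start of Gabra4 lies 387 bases inside the first listed start of Gabrb1, so that their listed 5′ ends overlap. The windows of the 2 members lowest in mouse 11 are shown, on the minus strand, with GC boxes (reverse complement) in capitals for Gabra4 and CANNTG matches in capitals for Gabra5.
Gabra4, chr5:71658259-71658558: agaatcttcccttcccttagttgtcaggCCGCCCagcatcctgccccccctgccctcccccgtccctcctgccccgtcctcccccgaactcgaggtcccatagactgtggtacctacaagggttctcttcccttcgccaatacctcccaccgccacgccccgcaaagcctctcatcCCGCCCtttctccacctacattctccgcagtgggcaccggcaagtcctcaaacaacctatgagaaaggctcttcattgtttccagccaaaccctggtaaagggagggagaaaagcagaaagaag
Gabra5, chr7:57510010-57510309: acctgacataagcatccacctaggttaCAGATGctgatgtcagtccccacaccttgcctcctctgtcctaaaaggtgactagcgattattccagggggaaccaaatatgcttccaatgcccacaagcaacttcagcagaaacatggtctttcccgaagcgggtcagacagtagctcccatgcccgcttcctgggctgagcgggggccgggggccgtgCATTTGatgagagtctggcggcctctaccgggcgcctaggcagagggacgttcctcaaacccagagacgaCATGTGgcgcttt
A match or its absence in these windows is a description of letters, and no binding was measured.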

How the data were processed

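Total RNA of 12 hippocampi, 1 per array, was measured, and groups were taken from the titles. The authors read spots with Agilent Feature Extraction (version 10.7.3.1, per the file headers), which gives each spot's intensity with the background subtracted, array by array. The flags of each spot (other, 0 or 1) are per the file headers too. The deposited value table holds log2 values whose normalization is not given in the sources used here; its columns followed the intensities of their own arrays (r at least 0.990), and it served as an alternative.

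From these, log2 intensities were averaged over a probe's spots, outliers apart, and scaled by subtracting each array's 75th percentile (controls left out). A probe passed if it was well above background in all 3 mice of some circadian time, as 33965 of 55681 did. They gave 24089 genes, each represented by its probe of highest mean. Between 59.3% and 77.1% of 59305 spots per array were well above background and 0 were saturated. CT0 mouse 1 had a local background of 100, and the other arrays 25 to 37. The number of mice limits the precision, and p-values measure the spread between single mice. Each time held the same position on each of 3 slides, so position and time cannot be told apart.

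R 4.3.3 with limma 3.58.1 gave the F test over 4 means, the 24-hour cosine and the 6 pairs, adjusted over all genes (Benjamini-Hochberg), with calls at 0.05. The fit was tested on simulated data. Members of each gene list named are those called, or else the 2 with the smallest F p, and likeness names the 2 highest r per member. Symbols were updated through RefSeq (GRCm38.p6). Members and lists were chosen with earlier results of these data known. Alternatives were the background correction, scaling, filter, probe choice, variance model, slide as a block, only the 6 arrays of a pair, the deposited table and leaving out each library. Results for some genes are not reported here.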

Additional observations from a re-analysis of the deposited data

Results flagged for a closer look

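Both results below come from probes outside the tests, because they failed the filter on dim probes, and both were above background in a single library. The Gabra6 probe, for the alpha6 subunit of cerebellar granule cells, was at 4.211 in CT12 mouse 11. On the other 11 arrays it was not well above background, and its highest measured value there was -6.84, in CT0 mouse 1. The Gabrq probe, for the theta subunit, was at -4.268 in CT12 mouse 11 and not well above background on the other 11, where its highest measured value was -6.67, in CT12 mouse 10. Mouse 11 is also the library in which cerebellar markers had a median of 5.01 relative to their own medians.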

How the results depend on the processing

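Under every alternative run, 0 of 7 members were called by the F test, the cosine or any of the 6 pairs. The lowest adjusted p of any member was 0.0609 (limma), for CT18 against CT12 with CT12 mouse 12 left out. That setting left only mice 10 and 11 at CT12, and 1260 of 24089 genes were called, against 97 with all mice. For Gabrd the F test's adjusted p ran between 0.178 and 0.739, and CT12 minus CT0 between 0.44 and 1.32, over the alternatives. Leaving out mouse 11 together with CT0 mouse 1, or with the slide as a block, was chosen after seeing the data. Of 1050 differences between times under an alternative, 64 had the opposite sign, the largest of these being 0.68 in size with all mice (Gabra4, CT12 against CT6), and 16 moved by more than the spread. Centring arrays on the median moved differences from CT0 up by 0.17 for CT6, 0.21 for CT12 and 0.27 for CT18, and mouse 11 by 0.15 against the others. Mouse 11 kept its side of the other libraries' mean for all 7 members under every alternative. Against only the other 2 CT12 libraries its difference was -1.44 for Gabra2, -2.83 for Gabra5, -1.24 for Gabrb1 and 1.42 for Gabrd. With the other probe it was -0.86 for Gabra3. With median centring it was -1.87 for Gabra4, -1.24 for Gabrb1 and 0.35 for Gabrb2. With normexp correction it was -1.79 for Gabra4 and -2.77 for Gabra5. The cause was not tested. No paired analysis was possible because the mouse numbers are not shared between circadian times, other than the match by slide, which is given with the results and called 0 of 7 members.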
